A study of Mus musculus with 18 samples.

Results

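The Reg genes, named after the regenerating islet-derived proteins, encode small secreted C-type lectins. The members described here were the 5 rows of the deposited table with the symbols Reg1, Reg3a, Reg3b, Reg3g and Reg4, out of 35976 gene symbols in all, found by symbol. The measurement was RNA sequencing of colon tissue from 18 mouse samples in 3 groups of 6, each taken on day 2. The ISM012-042 group had TNBS-induced colitis and received ISM012-042, which the series title and sample titles describe as a gut-restricted PHD inhibitor. The vehicle group had TNBS-induced colitis and received vehicle. The sham group was the control without TNBS colitis. TNBS is a hapten that provokes acute inflammation of the colon when given into it, and PHD enzymes are the prolyl hydroxylases that mark hypoxia-inducible factors for degradation. The sources used here do not give the strain, sex or age of the mice, the dose of the compound or the stretch of colon that was taken. The labels number the samples within a group, and the sample descriptions carry a further number that differs in every sample. Neither says in words whether the samples came from separate mice. A p-value here therefore reflects sample-to-sample spread, which may be partly technical.

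Reg3b and Reg3g are made by epithelial cells of the gut and released into the lumen, where they bind bacteria and help to keep them away from the gut surface. Their transcription is known to be switched on by interleukin 22, which acts on epithelial cells through a receptor that activates STAT3. Reg4 is a more distant relative that marks deep crypt secretory cells of the colon, which support the stem cells beside them, and also enteroendocrine cells. Reg1 is best known from the exocrine pancreas and from regenerating gut epithelium, and Reg3a is the mouse gene that shares its symbol with the human antimicrobial lectin REG3A.

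In the RefSeq annotation of GRCm38.p6, 4 of the 5 members lie on chromosome 6 within 97.99 kb that hold 6 Reg genes. Reg3b is at chr6:78370885-78373466 and Reg3a at chr6:78380709-78383839, with Reg1 at chr6:78425983-78428668, all on the plus strand, and Reg3g is at chr6:78466269-78468874 on the minus strand. Reg4 lies apart on the plus strand at chr3:98222138-98236748. The promoters of Reg3b and Reg3g are shown because these were the members that changed together. Both are RefSeq sequences of GRCm38.p6 from 250 bases before to 50 after the start site, 5′ to 3′ on the strand of the gene, at chr6:78370635-78370934 for Reg3b and chr6:78468825-78469124 for Reg3g. The capitals mark the longest run of bases that the pair shares, 29 bases that begin 20 bases before the start site in both.
Reg3b: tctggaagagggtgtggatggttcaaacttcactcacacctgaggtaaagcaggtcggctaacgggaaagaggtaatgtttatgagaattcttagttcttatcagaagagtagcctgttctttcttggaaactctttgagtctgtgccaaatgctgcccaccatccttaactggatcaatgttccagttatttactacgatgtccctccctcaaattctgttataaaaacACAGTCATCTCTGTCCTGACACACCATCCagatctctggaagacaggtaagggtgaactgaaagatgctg
Reg3g: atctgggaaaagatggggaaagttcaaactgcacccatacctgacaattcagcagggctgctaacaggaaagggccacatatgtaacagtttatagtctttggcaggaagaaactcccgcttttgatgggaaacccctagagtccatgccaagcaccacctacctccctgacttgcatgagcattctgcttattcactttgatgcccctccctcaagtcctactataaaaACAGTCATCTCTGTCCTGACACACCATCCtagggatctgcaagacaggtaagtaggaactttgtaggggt
Over the 300 bases the pair was 68.6% identical, and the other pairs of members were between 45.7% and 52.4% identical. The letters TATAAA, searched on both strands and found in 13.6% of 32851 promoters of the same length, stood 29 bases before the start in Reg3b, 27 before it in Reg3g and 30 before it in Reg1, with a further match on the other strand at 161 before the start in Reg3g and one past the start in Reg1. The letters TTCNNNGAA, the core that STAT proteins are known to recognise, occurred in the Reg3b window once, as TTCTTGGAA at 129 bases before the start, and in 8.30% of all promoters. They were not in the Reg3g window. ACGTG was the only form of the hypoxia response element core that was searched. It was in the Reg4 window at 223 bases before the start, in none of the other 4, and in 19.6% of all promoters. These matches describe letters and are not binding sites. Between the transcripts of Reg3b and Reg3g the identity was 67.7%, with a longest shared run of 35 bases, and between those of Reg3a and Reg3b it was 67.6%, with 24 bases. The sources used here do not say how reads shared by such copies were assigned, so the low values of Reg3a beside very high Reg3b are uncertain.

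Values are TPM, a length-corrected share of transcripts, which scale each library to a total of 1000000, so the number of reads behind a value, and hence the depth, is unknown. Between 12678 and 14629 genes reached 1 TPM per library. The share of TPM held by the 13 mitochondrial genes was 20.1% to 39.8% in ISM012-042, 22.4% to 57.8% in vehicle and 29.4% to 42.6% in sham. Epithelial markers such as Epcam, Krt8 and Cdx2 were present in every library, with summed levels of 12123 to 14551 TPM in ISM012-042, 7623 to 16972 TPM in vehicle and 11078 to 16948 TPM in sham. The libraries differed strongly within each group in Hoxb13, a homeobox gene used in the most distal colon and rectum. Its level ran from 0.329 to 219 TPM in ISM012-042, 1.52 to 179 TPM in vehicle and 9.05 to 288 TPM in sham, and values of Reg3a, Reg3b, Reg3g and Reg4 are therefore also given with that level taken into account.

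In the colitis model the antimicrobial lectins Reg3b and Reg3g rose, Reg3g with a call close to the threshold. Reg3a, Reg1 and Reg4 did not pass the test. Of the 4 members tested between vehicle and sham, 2 rose and 0 fell, where 4.46% of the 14129 genes tested were called, 0.326% as higher and 4.13% as lower. The test was limma on log2(TPM + 1) over genes with at least 1 TPM in at least 6 libraries, with a Benjamini-Hochberg adjusted threshold of 0.05. Reg1 was too low to enter it. The share called higher depended on scaling, with 46 genes here, 517 with median-ratio scaling and 541 with quantile normalization.

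Reg3b was at 24.7, 2629 and 19326 TPM (lowest, median and highest) in vehicle, and at 0.478, 19.1 and 60.6 TPM in sham. The vehicle libraries other than replicate 1 stood above every sham library, 5 of 6, while replicate 1 lay inside the sham range, so the groups overlapped. The vehicle libraries averaged 4886 ± 7168 TPM and the sham libraries 23.2 ± 24.1 TPM (SD, n = 6 each). On the log2(TPM + 1) scale Reg3b was higher in vehicle by 7.11 ± 1.56 (SE, 95% interval 3.83 to 10.39; limma adjusted p = 0.0159; exact two-sided permutation p = 0.00866 for this gene alone), the largest increase among the 46 genes called higher. Among the nuclear genes of a library, ordered by TPM, it was rank 1 in vehicle replicate 3 and rank 4350 in vehicle replicate 1, with a median rank of 13.5 in vehicle. In sham its rank ran from 1833 to 15200. The labels name no cells, and in such bulk samples more cells of a type and more RNA per cell cannot be told apart.

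Reg3g, the close partner of Reg3b that binds Gram-positive bacteria, was at 6.55, 302 and 1363 TPM in vehicle and at 0.308, 15.8 and 31.9 TPM in sham. Again 5 of 6 vehicle libraries were above the highest sham library and replicate 1 was not. Its mean was 429 ± 482 TPM in vehicle and 15.7 ± 13.8 TPM in sham. The log2 difference was 4.38 ± 1.20 (SE, 95% interval 1.85 to 6.90; limma adjusted p = 0.0465; exact permutation p = 0.0108). This call lies close to the threshold: it was lost on leaving out any single vehicle or sham library other than vehicle replicate 1, with adjusted p up to 0.122, and without that replicate the difference was 5.33 with an adjusted p of 0.00646. The Reg3b call held in each of these 12 fits, with adjusted p between 0.00265 and 0.0414. With only the vehicle and sham libraries in the fit the limma adjusted p of Reg3g was 0.0744. With a permutation of each gene in place of limma the adjusted p of Reg3b was 0.137, and no gene of the table passed. Groups of 6 allow no permutation p below 0.00216 before adjustment over all genes tested, so that setting has little power to call a gene.

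**Figure D1:**
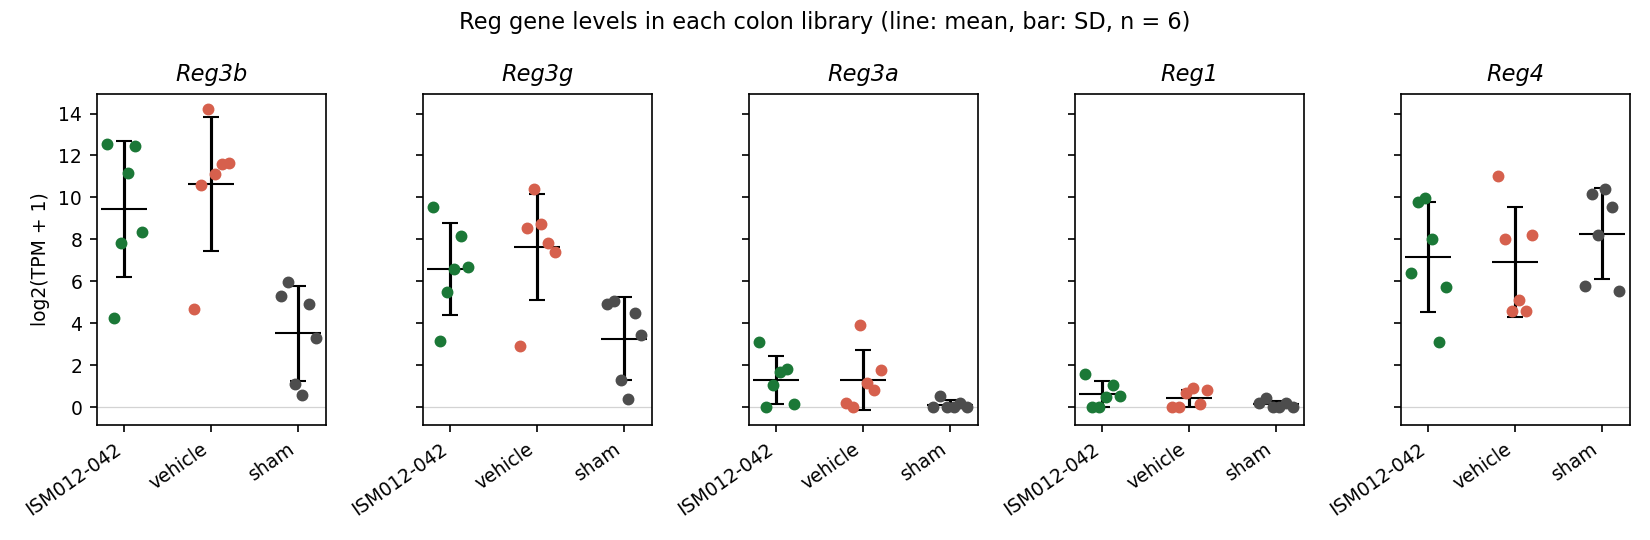
log2(TPM + 1) of each Reg member (y axis) in each of the 18 libraries, one point per library, with ISM012-042, vehicle and sham from left to right in each panel; the line is the group mean and the bar the SD (n = 6). Reg3b and Reg3g stand above the sham range in 5 of 6 libraries of both colitis groups, Reg4 spreads over a wide range in all groups, and Reg3a and Reg1 are near or at 0 in sham.

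ISM012-042 was not distinguishable from vehicle in any member at this spread. Reg3b was at 18.1, 1332 and 5972 TPM in ISM012-042, against 24.7, 2629 and 19326 TPM in vehicle. The ranges overlapped, vehicle replicate 3 stood above every ISM012-042 library, and each group had 1 library inside the sham range, replicate 2 in ISM012-042 and replicate 1 in vehicle. The log2 difference was -1.20 ± 1.56 (SE, 95% interval -4.48 to 2.09; limma adjusted p = 0.598). Reg3g was at 7.80, 99.4 and 746 TPM in ISM012-042 and 6.55, 302 and 1363 TPM in vehicle, a difference of -1.04 ± 1.20 (95% interval -3.57 to 1.48; limma adjusted p = 0.554). Both intervals are wide and hold 0. Leaving out 1 library moved the Reg3b difference to between -2.39, without vehicle replicate 1, and -0.16, without ISM012-042 replicate 2, and the Reg3g difference to between -1.99 and -0.35 without the same libraries. Over all genes tested the median log2 difference was 0.30 in this comparison, 0.21 in ISM012-042 against sham and -0.07 in vehicle against sham, and with median-ratio scaling, which takes out such a shift, ISM012-042 minus vehicle was -1.53 ± 1.63 for Reg3b and -1.37 ± 1.25 for Reg3g (limma adjusted p = 0.946 and 0.914). No gene in the table was called between these groups, 0% of 14129, with a smallest limma adjusted p of 0.233, while at an unadjusted p under 0.05 there were 2670 genes higher and 18 lower, and none of the 4 tested members was among them. Within the libraries of low Hoxb13 alone (log2(TPM + 1) up to 5), 2 of ISM012-042 and 3 of vehicle, 3 genes were called higher and 6 lower. No Reg member was among them.

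Against sham, 0 of 4 tested members passed in ISM012-042, where 1.42% of all genes tested were called, 0.545% as higher and 0.871% as lower. Reg3b nevertheless lay above the highest sham library in 5 of 6 ISM012-042 libraries, with a mean of 2415 ± 2749 TPM in ISM012-042 and 23.2 ± 24.1 TPM in sham. The log2 difference was 5.91 ± 1.56 (SE, 95% interval 2.63 to 9.19; limma adjusted p = 0.0675; exact permutation p = 0.00866). The Reg3g difference was 3.33 ± 1.20 (95% interval 0.81 to 5.86; limma adjusted p = 0.157; exact permutation p = 0.0216), with a mean of 213 ± 278 TPM in ISM012-042 and 15.7 ± 13.8 TPM in sham. Reg3b passed without ISM012-042 replicate 2, at 6.95 (adjusted p = 0.0335), with only these groups in the fit (adjusted p = 0.0413), and with median-ratio scaling (adjusted p = 0.0498). The passing of a member in vehicle and not in ISM012-042 is no difference between them, since the direct comparison above did not pass. Both colitis groups were compared with the same sham libraries.

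The proportion of the pair also differed by group, as a description without a test. Reg3b was 2.32, 6.54 and 24.5 times Reg3g (lowest, median and highest) in ISM012-042, 3.77, 9.27 and 18.9 times in vehicle, and 0.777, 1.35 and 1.90 times in sham. Every colitis library had a higher ratio than every sham library, including the libraries in which both genes were low. All 5 members together held 0.0487% to 0.681% of the TPM in ISM012-042, 0.211% to 2.07% in vehicle and 0.00639% to 0.137% in sham.

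Reg3a, the third lectin of the cluster, was low throughout. It was at 0, 1.63 and 7.63 TPM (lowest, median and highest) in ISM012-042, 0, 1.01 and 14.1 TPM in vehicle, and 0, 0 and 0.438 TPM in sham. In ISM012-042 4 libraries and in vehicle 3 libraries reached 1 TPM, in sham none did, so Reg3a entered the test through the colitis libraries. The log2 difference was 1.20 ± 0.57 in vehicle against sham (limma adjusted p = 0.279), -0.01 ± 0.57 in ISM012-042 against vehicle (adjusted p = 0.993) and 1.19 ± 0.57 in ISM012-042 against sham (adjusted p = 0.243). It never exceeded 0.723% of the Reg3b level of the same library. Its highest values were in ISM012-042 replicate 1 and vehicle replicate 3, which also had the highest Reg3b of their groups.

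Reg1 was at 0, 0.428 and 2.02 TPM in ISM012-042, 0, 0.339 and 0.898 TPM in vehicle, and 0, 0.073 and 0.331 TPM in sham. Only 2 libraries, both of ISM012-042, reached 1 TPM, and with 3 sham libraries listed at 0 it was not tested across genes. For this gene alone the exact permutation p was 0.175 for vehicle against sham, 0.576 for ISM012-042 against vehicle and 0.108 for ISM012-042 against sham, where 0.00216 is the smallest p that groups of 6 allow. The other Reg genes of the cluster, Reg2 and Reg3d, were below 1 TPM in every library.

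Reg4 was present in every library, at widely differing levels, and did not differ between the groups beyond the spread. It was at 7.69, 171 and 1013 TPM in ISM012-042, 23.1, 146 and 2074 TPM in vehicle, and 45.2, 521 and 1374 TPM in sham. The ranges overlapped, and the spread within each group was far wider than the differences between their medians. The log2 difference was -1.35 ± 1.32 in vehicle against sham (95% interval -4.12 to 1.43; limma adjusted p = 0.651), 0.25 ± 1.32 in ISM012-042 against vehicle (-2.52 to 3.03; adjusted p = 0.899) and -1.09 ± 1.32 in ISM012-042 against sham (-3.87 to 1.68; adjusted p = 0.610).

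Reg4 tended to be higher where Hoxb13 was high in all 3 groups. The Reg3 pair tended to be lower there in the colitis groups, with overlapping ranges in vehicle. The libraries divided at a log2(TPM + 1) of 5 for Hoxb13, a limit chosen after the data had been seen, into 11 above it and 7 below it. In ISM012-042, Reg4 was at 52.7 to 1013 TPM in the 4 libraries of high Hoxb13 and 7.69 to 84.4 TPM in the 2 of low Hoxb13. In vehicle it was at 259 to 2074 TPM in the 3 of high Hoxb13 and 23.1 to 33.5 TPM in the 3 of low Hoxb13, and in sham at 293 to 1374 TPM in 4 and 45.2 to 53.3 TPM in 2. The Reg4 ranges did not overlap in vehicle or in sham, and they did in ISM012-042.

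Reg3b tended the other way in the colitis groups. In ISM012-042 it was at 18.1 to 2334 TPM in the libraries of high Hoxb13 and 5612 to 5972 TPM in those of low Hoxb13. In vehicle it was at 24.7 to 3181 TPM where Hoxb13 was high and 2198 to 19326 TPM where it was low, and in sham at 0.478 to 60.6 TPM where it was high and 8.86 to 39.0 TPM where it was low. The Reg3b ranges were apart in ISM012-042 and overlapped in vehicle and in sham. The same held for Reg3g. In ISM012-042 Reg3g was at 7.80 to 103 TPM where Hoxb13 was high and 281 to 746 TPM where it was low. In vehicle Reg3g was at 6.55 to 376 TPM where Hoxb13 was high and 228 to 1363 TPM where it was low. In sham the Reg3g ranges were 0.308 to 31.9 TPM and 9.88 to 29.0 TPM. Vehicle replicate 1, with the lowest Reg3b of its group, had the highest Reg4 of all libraries, 2074 TPM. ISM012-042 replicate 2, with a Reg3b of 18.1 TPM, had a Reg4 of 879 TPM.

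**Figure D2:**
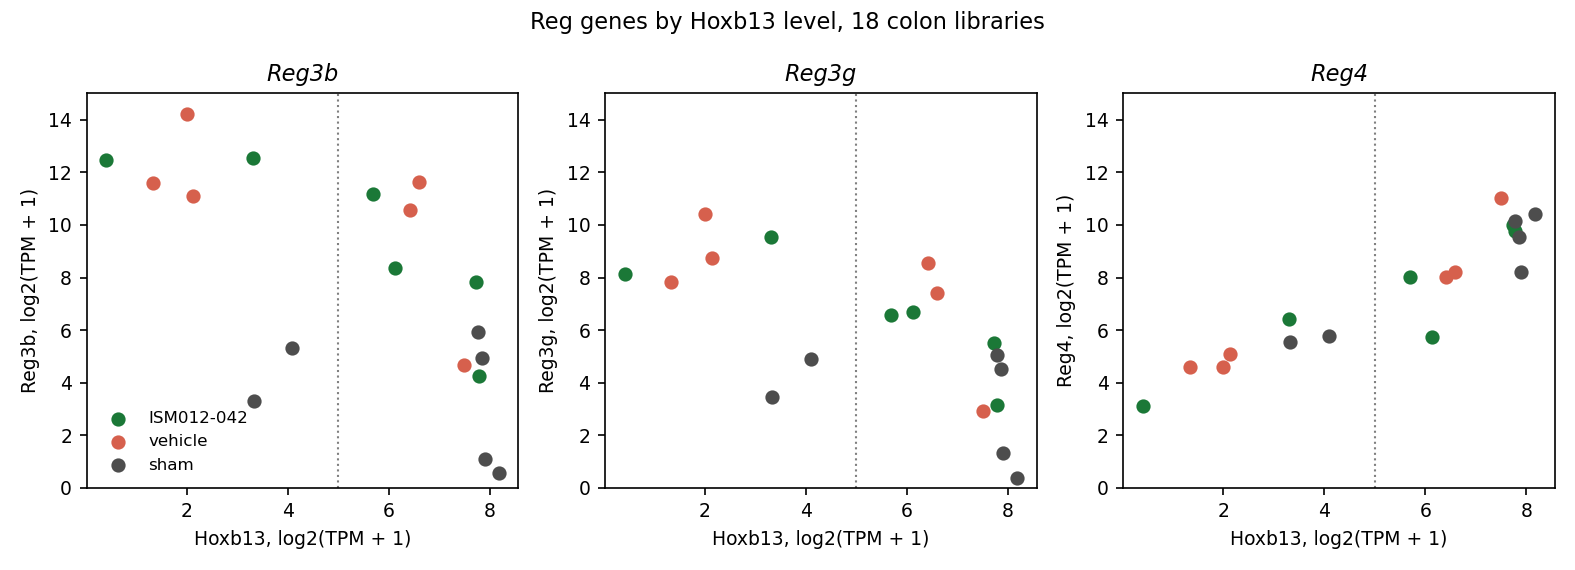
log2(TPM + 1) of Reg3b, Reg3g and Reg4 (y axes) against that of Hoxb13 in the same library (x axis), one point per library, coloured by group, with a dotted line at the Hoxb13 level of 5. Most Reg4 values are higher to the right of the line, with ISM012-042 libraries overlapping across it, whereas the highest Reg3b and Reg3g values of both colitis groups lie to the left of the line and sham Reg3b stays at or below 60.6 TPM on either side.

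With the Hoxb13 level as a covariate, Reg3b was higher in vehicle than in sham by 5.55 ± 1.32 (limma adjusted p = 0.0279) and higher in ISM012-042 than in sham by 4.95 ± 1.27 (adjusted p = 0.0328). Reg3g was then higher in vehicle by 3.20 ± 1.03 with an adjusted p of 0.0846, so its call was lost. With median-ratio scaling beside the covariate, a fit chosen after seeing the data, the Reg3g difference was 3.19 ± 1.01 (limma adjusted p = 0.0482), which passed. For Reg4 the standard error with the covariate alone fell to 0.53. The vehicle difference became 0.57 ± 0.53 (limma adjusted p = 0.548), of opposite sign to the value without the covariate. The split at a Hoxb13 level of 5 was chosen after the data had been seen. It left 3 vehicle and 2 sham libraries of low Hoxb13, and 3 vehicle and 4 sham libraries of high Hoxb13. Within the few libraries of low Hoxb13, Reg3b was higher in vehicle than in sham by 7.996 ± 1.237 (limma adjusted p = 0.0304). Reg3g was higher there by 4.83 ± 1.01 (limma adjusted p = 0.0496). Within those of high Hoxb13, Reg3b was higher by 5.83 ± 2.06 (adjusted p = 0.0951) and Reg3g by 3.48 ± 1.55 (adjusted p = 0.164). In ISM012-042 against vehicle the covariate gave -0.60 ± 1.25 for Reg3b (adjusted p = 0.762), -0.59 ± 0.97 for Reg3g (adjusted p = 0.699) and -0.49 ± 0.50 for Reg4 (adjusted p = 0.532). Reg3a was then at 0.78 ± 0.55 in vehicle against sham (adjusted p = 0.417). Hoxb13 itself did not pass between vehicle and sham, at -2.19 ± 1.40 (adjusted p = 0.444). What sets the Hoxb13 level of a library was not tested.

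**Figure D3:**
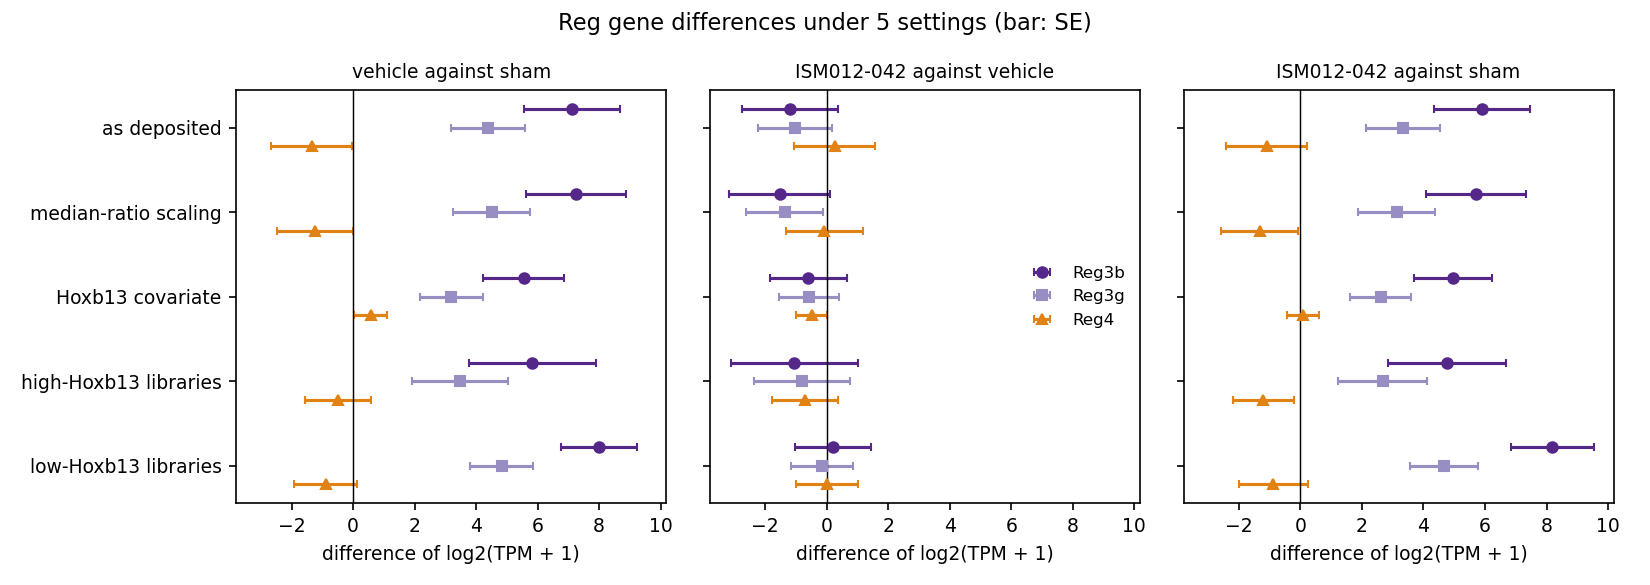
Differences of log2(TPM + 1) (x axes) of Reg3b, Reg3g and Reg4 with their SE as bars, in vehicle against sham, ISM012-042 against vehicle and ISM012-042 against sham, each under 5 settings: values as deposited, median-ratio scaling, the Hoxb13 covariate, and the libraries of high or of low Hoxb13 alone. Reg3b and Reg3g lie to the right of 0 in every setting of both colitis groups against sham, and Reg4 crosses to 0.57 in vehicle against sham under the Hoxb13 covariate.

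Among the tested genes of the axis known to drive the Reg3 lectins none passed as higher. Over all genes tested only 0.326% were called higher in vehicle against sham, and 4.13% lower, so a count of 0 is near that share. Of the 28 genes of the interleukin 22 and STAT3 axis 20 were tested, and in vehicle against sham 0 rose and 2 fell, with a median log2 difference of 0.03 beside -0.07 over all genes tested. In sign, 10 of the 20 were higher and 10 lower. The largest increases were Il1b at 3.56 ± 1.04 (limma adjusted p = 0.0611) and Osm at 2.34 ± 0.73 (adjusted p = 0.0805), which did not pass. Il22ra1, the epithelial subunit of the interleukin 22 receptor, was at 15.2 ± 6.52 TPM in vehicle and 31.6 ± 5.54 TPM in sham and fell by 1.09 ± 0.25 on the log2 scale (limma adjusted p = 0.0190). Il17rc, a subunit of the interleukin 17 receptor, was at 40.3 ± 9.86 TPM in vehicle and 65.7 ± 8.86 TPM in sham and fell by 0.72 ± 0.14 (adjusted p = 0.00899). Stat3 differed by 0.14 ± 0.20 (adjusted p = 0.761), and Socs3, the feedback inhibitor that STAT3 induces, by 1.45 ± 0.63 (adjusted p = 0.228). Il22 averaged 0.448 TPM in ISM012-042, 0.250 TPM in vehicle and 0.0197 TPM in sham and was too low to be tested. Extl3, a receptor proposed for Reg3 proteins, differed by -0.08 ± 0.18 in vehicle against sham (adjusted p = 0.875), and of 4 receptor candidates 0 passed in any comparison.

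Other secreted defence genes that epithelium can make moved both ways in vehicle. Of 21 tested, 4 rose and 2 fell, beside 0.326% and 4.13% of all genes tested, with a median of 0.43. Those that rose were S100a8, at 6.63 ± 1.20 (limma adjusted p = 0.00616), S100a9, at 6.66 ± 1.19 (adjusted p = 0.00605), the acute-phase gene Saa3, at 4.94 ± 1.01 (adjusted p = 0.0105), and Lcn2, which withholds iron from bacteria, at 4.66 ± 1.09 (adjusted p = 0.0215). S100a8 and S100a9 are also abundant in neutrophils, and S100a8 was highest in vehicle replicate 2, at 12002 TPM, and in ISM012-042 replicate 2, at 2994 TPM, the libraries richest in neutrophil markers. The mucus lectin Zg16 fell by 0.76 ± 0.21 (adjusted p = 0.0440) and Lypd8, which keeps flagellated bacteria from the epithelium, fell by 0.90 ± 0.23 (adjusted p = 0.0315). In ISM012-042 against sham, 1 of the 21 passed, Lypd8, which fell by 0.94 ± 0.23 (adjusted p = 0.0485), and 0 passed in ISM012-042 against vehicle.

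**Figure D4:**
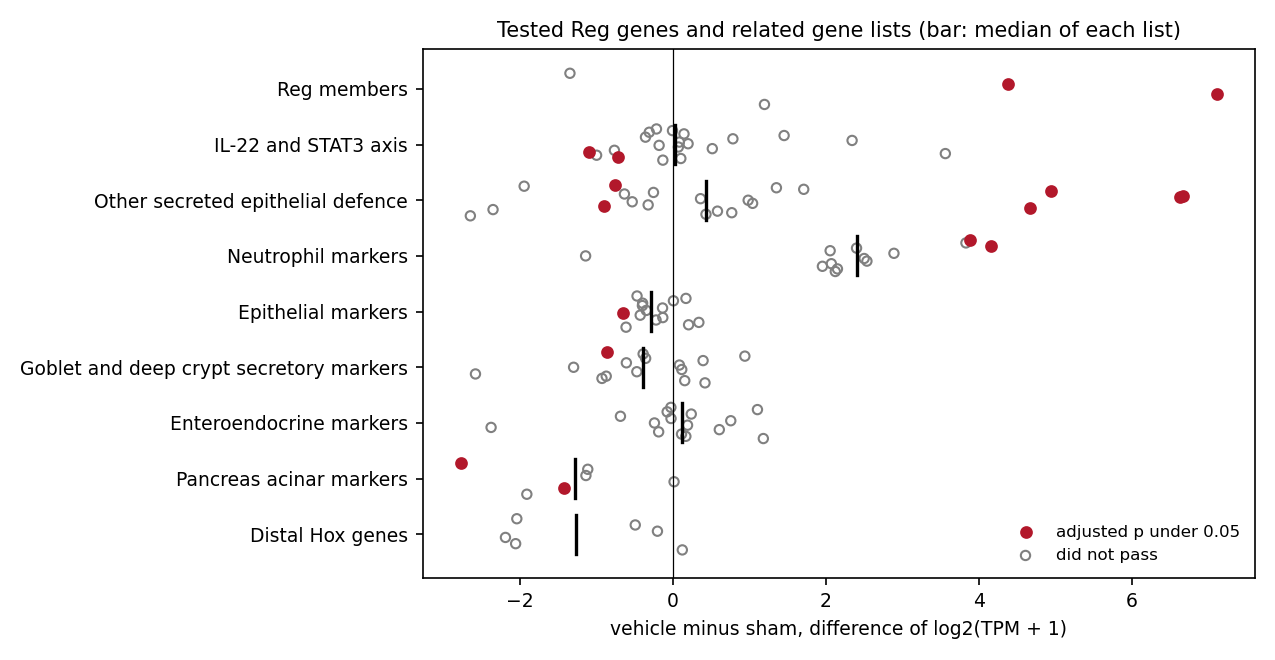
Differences of log2(TPM + 1) in vehicle minus sham (x axis) for each tested gene of the Reg family and of 8 lists, one point per gene, filled where the limma adjusted p was under 0.05, with a bar at the median of each list other than the Reg members. Reg3b, at 7.11, lies furthest to the right, followed by S100a9 and S100a8 of the defence list at 6.66 and 6.63, while the interleukin 22 and STAT3 axis is centred near 0.

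Markers of other cells moved beside the Reg3 lectins in part. Over all genes tested 0.326% were called higher in vehicle against sham and 4.13% lower. Of the 13 neutrophil markers tested 2 rose in vehicle, Retnlg at 4.15 ± 0.92 (limma adjusted p = 0.0167) and Wfdc21 at 3.88 ± 1.04 (adjusted p = 0.0417), with a median of 2.40. The summed level of all 15 was 58.6 to 1466 TPM in ISM012-042, 46.6 to 3652 TPM in vehicle and 39.0 to 710 TPM in sham, with a median of 187 TPM in ISM012-042, 299 TPM in vehicle and 423 TPM in sham. Ly6g made up most of the sham sums and differed by -1.14 ± 1.18 in vehicle against sham (adjusted p = 0.671). Without Ly6g, a choice made after its values had been seen, the summed level of the 14 other markers was 16.9 to 1095 TPM in ISM012-042, 35.4 to 3243 TPM in vehicle and 5.14 to 11.7 TPM in sham. The highest sums were in vehicle replicate 2, with a Reg3b of 1527 TPM, and in ISM012-042 replicate 2, with a Reg3b of 18.1 TPM. Vehicle replicate 6 followed in its group, at 193 TPM, with a Reg3b of 3181 TPM. Vehicle replicate 1, whose Reg3b of 24.7 TPM lay inside the sham range, was next at 183 TPM. Vehicle replicate 3, with the highest Reg3b, was at 66.9 TPM. Of 21 pancreas acinar markers, which would mark the organ where Reg1 is abundant, 7 were at 0 in every library of vehicle and Prss1, Prss3, Cpa1 and Try4 were at 0 in every library of all groups. Others of the list were high. The summed level of the 21 was 198 to 1729 TPM in ISM012-042, 223 to 808 TPM in vehicle and 1290 to 3576 TPM in sham. Sycn alone averaged 639 TPM in ISM012-042, 373 TPM in vehicle and 2498 TPM in sham. Of 6 tested, with a median of -1.28, Sycn fell by 2.78 ± 0.47 (adjusted p = 0.00484) and Clps by 1.42 ± 0.35 (adjusted p = 0.0253) in vehicle against sham. Of 18 markers of Paneth cells and small intestine, where Reg3 lectins are also made, Defa21, Defa22 and Defa26 were at 0 in all libraries. The summed level of the 18 was 155 to 1123 TPM in ISM012-042, 132 to 1014 TPM in vehicle and 132 to 3432 TPM in sham. Its median was 366 TPM in ISM012-042, 235 TPM in vehicle and 1323 TPM in sham. Of 8 tested, with a median of 0.53, Mmp7, a protease of Paneth cells and of injured epithelium, rose by 3.12 ± 0.74 (adjusted p = 0.0223). In sign, 5 of the 8 were higher and 3 lower. The lowest were Mptx2 at -2.59 ± 0.89 (limma adjusted p = 0.113) and Itln1 at -2.35 ± 1.11 (adjusted p = 0.273), which did not pass.

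For markers of the secretory cells that carry Reg4, and of the epithelium, the count called lower was at most 1 per list, near the 4.13% of all genes tested. Of 15 goblet and deep crypt secretory markers 0 rose and 1 fell in vehicle against sham, Tff3, which fell by 0.86 ± 0.24 (limma adjusted p = 0.0491), with a median of -0.39. Of 15 enteroendocrine markers 0 passed, with a median of 0.11. Of 14 epithelial markers Hnf4a fell by 0.66 ± 0.15 (adjusted p = 0.0173) and none rose, with a median of -0.29. Of 10 smooth muscle markers, 10 adipocyte markers and 6 distal Hox genes tested, 0 passed in any comparison, with medians of -0.66, 1.12 and -1.27 in vehicle against sham. In ISM012-042 against vehicle no gene of any list passed. In ISM012-042 against sham Lypd8 and Sycn alone passed among the genes of the lists, and Sycn fell by 2.24 ± 0.47 (adjusted p = 0.0240). The part of these differences in the Reg results was not tested.

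The genes whose levels ran most closely with Reg3b, Reg3g and Reg4, the members whose mean reached 5 TPM in some group, were sought after subtracting the group means, over 18 libraries and 10386 genes, as a description without a test. For Reg3b the closest was Reg3g, at a Pearson r of 0.95 and a Spearman rho of 0.90, followed by Cyp2c65, Slc51a, Prap1 and Plscr2, each at 0.87. For Reg3g, after Reg3b, they were Mall at 0.84, Ifit1bl2 and Fam162a at 0.82 and Mal at 0.81. For Reg4 they were AI854703 at 0.96, Atp12a at 0.95, and Gatm, Eno3 and Cela1 at 0.94. Hoxb13 followed at rank 6 for Reg4, with an r of 0.93, and had an r of -0.64 with Reg3b. Reg4 itself had an r of -0.63 with Reg3b. The Hoxb13 level varied widely within each group, and its part in these values was not tested.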

How the data were processed

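Colon tissue was homogenized in TRI Reagent, its total RNA was cleaned on RNeasy columns, and cDNA was made with a FastKing kit, as the labels state. Values were deposited as TPM made by the authors for 35976 symbols in 18 libraries. The submitters' processing notes name mm10 and DRAGEN 4.0.3 without their roles. The counting method, the annotation and the strandedness were not given in the sources used here. All 18 columns matched a sample by name. Groups come from the sample titles, and TNBS from the design text of the series. No 2 libraries were identical, with a highest r of 0.986. TPM keeps no depth, so precision is known only from the spread between replicates. The table held 27 symbols turned into dates and 4 entries of duplicated symbols, and 32501 symbols were found in RefSeq of GRCm38.p6.

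The members and the 13 gene lists (184 genes, 140 tested) were chosen with earlier results of these data known. All 18 libraries were fitted together in limma 3.58.1 under R 4.3.3 on log2(TPM + 1), with trend and robust settings, over the 14129 genes with at least 1 TPM in at least 6 libraries. Adjustment was by Benjamini-Hochberg over all of them, at 0.05. Single members also had an exact two-sided permutation over 924 regroupings. The procedure was tested on simulated data. Named genes are the members, the 5 genes nearest in pattern to each member with a mean of at least 5 TPM, up to 3 passing genes of each list and comparison by p (where none passed, counts alone are given), and Il22, Il22ra1, Stat3, Socs3, Extl3 and Hoxb13. Added after their values had been seen were Lcn2, Zg16, Lypd8, Il1b, Osm, Mptx2 and Itln1 in vehicle against sham. S100a8 by library, Ly6g and the sum without it were also added then. Sequences were matched with Biopython 1.88.

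Alternatives were pseudocounts of 0.1 and 5, no filter, a minimum of 5 TPM, median-ratio scaling, quantile normalization, no mitochondrial genes (13), array weights, only the groups compared, empirical Bayes without trend and robust settings, a permutation per gene, a replicate block and each library left out in turn. The Hoxb13 level was also a covariate. Its use together with median-ratio scaling and the fits within high and low Hoxb13 were chosen after seeing the data.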

Additional observations from a re-analysis of the deposited data

Results flagged for a closer look

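Reg3a in sham replicate 2 stood apart from the rest of its group at 0.438 TPM, where 4 of the 6 sham libraries were at 0. Of the 15 sets of 6 values, 5 members in 3 groups, it was the only one with such a sample. Chance alone flags about 1 in 20 groups.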

How the results depend on the processing

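TPM gives no depth, so values near 0, those of Reg3a and Reg1, have unknown precision. In vehicle against sham Reg3b passed under 25 of 28 alternatives (5.25 to 8.30) and Reg3g under 10 of 28 (2.88 to 5.33). The 2 members called became 1 with no filter, with only the groups compared, with array weights and with the Hoxb13 covariate, and 0 with a permutation per gene, with the replicate block and within high Hoxb13; leaving out 1 library gave 1 to 2. In ISM012-042 against sham the 0 called became 1 with median-ratio scaling, quantile normalization, mitochondrial genes left out, only the groups compared, and the Hoxb13 covariate without and with median-ratio scaling, and 3 with array weights; leaving out 1 library gave 0 to 1, the 1 being Reg3b without ISM012-042 replicate 2. In ISM012-042 against vehicle it was 0 throughout. Among the genes of the lists, Tff3 passed in vehicle against sham under 7 of 28, Zg16 under 11, Lypd8 under 12, Wfdc21 under 14, Clps under 18 and Lcn2 under 26, and in ISM012-042 against sham Lypd8 passed under 10 and Sycn under 18. The cause of these changes was not tested. The same replicate numbers did not pair the samples: the correlations of deviations from the group means ran from -0.38 to 0.61, and 4 of 18 libraries correlated best with their own number. With the replicate block the limma adjusted p in vehicle against sham was 0.0504 for Reg3b and 0.110 for Reg3g.

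Genes called in vehicle against sham were 46 higher and 584 lower, and 517 and 961 with median-ratio scaling, 541 and 928 with quantile normalization, and 421 and 911 without mitochondrial genes. They were 287 higher with array weights, 167 with the Hoxb13 covariate, 815 higher and 1012 lower with that and median-ratio scaling, 1028 and 279 within high and 110 and 1829 within low Hoxb13. They were 29 higher with a pseudocount of 5 or no filter, 308 lower with only the groups compared, and 0 with a permutation per gene. Leaving out 1 library gave 20 to 80 higher and 314 to 884 lower. In ISM012-042 against vehicle the 0 higher and 0 lower became 3 and 6 within low Hoxb13. In ISM012-042 against sham the 77 higher ran from 17 to 2322 and the 123 lower from 41 to 938 with all libraries kept or split by Hoxb13, with 137 and 618 under median-ratio scaling and 745 and 387 without mitochondrial genes. Leaving out 1 library there gave 14 to 104 higher and 62 to 125 lower.

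Some differences that had not passed changed sign. In vehicle against sham Reg4 was 0.57 with the Hoxb13 covariate and 0.55 with that and median-ratio scaling. Extl3 was 0.022 with median-ratio scaling, 0.010 with quantile normalization, 0.017 without mitochondrial genes, 0.041 with array weights, 0.022 with the Hoxb13 covariate, 0.00021 with that and median-ratio scaling and 0.18 within high Hoxb13, and -0.15 to 0.056 leaving out 1 library. In ISM012-042 against vehicle Reg3a was 0.059 with a pseudocount of 0.1, 0.45 with array weights, 0.15 with the Hoxb13 covariate, 0.014 with that and median-ratio scaling, 0.073 within high and 0.49 within low Hoxb13, and -0.37 to 0.51 leaving out 1 library. With array weights Reg3b was 0.75, Reg3g 0.020, Reg4 -0.94, Hoxb13 -0.55 and Stat3 -0.17, and within low Hoxb13 Reg3b was 0.19 and Socs3 0.63. Reg4 was -0.080 with median-ratio scaling, -0.49 with the Hoxb13 covariate, -0.77 with both and -0.71 within high Hoxb13, and -0.31 to 1.07 leaving out 1 library. Stat3 was -0.18 with median-ratio scaling, -0.088 with quantile normalization, -0.0062 without mitochondrial genes, -0.18 with the Hoxb13 covariate and median-ratio scaling, where Il22ra1 was -0.041, and -0.071 within high Hoxb13. Socs3 was -0.65 to 0.17 leaving out 1 library. In ISM012-042 against sham Reg4 was 0.087 with the Hoxb13 covariate.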
